A study of Mus musculus with 6 samples.

Results

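The genes described here encode the subunits of the mitochondrial respiratory complexes and of ATP synthase, together with a few genes whose symbols share the same prefixes. They were taken as all probe sets whose single platform symbol starts with Ndufa, Ndufb, Ndufc, Ndufs, Ndufv, Uqcr, Cox4, Cox5, Cox6, Cox7, Cox8 or Atp5, or is Sdha, Sdhb, Sdhc, Sdhd or Cyc1. This gave 180 probe sets of 91 genes, among 35041 probe sets of 18193 genes with a single symbol. The 430A array design held 157 of the probe sets and the 430B design held 23. By complex there were 34 genes of complex I, 4 of complex II, 9 of complex III, 18 of complex IV and 17 of complex V. The other 9 genes are not subunits: 8 Ndufaf genes, which encode complex I assembly factors, and Cox7a2l, which encodes a factor that joins complexes into supercomplexes. A further 10 probe sets carried several symbols and were left out.

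Livers of male mice on a B6SJL hybrid background, 32 to 37 days old, were compared. WT mice carried no transgene. The mice called LT carried ApoErtTA and TRE2-TAg and were induced to make the SV40 large T antigen together with small t. The mice called 17kT, also labelled ApoErtTA and TRE2-TAg, were induced to make 17kT, a truncated form of large T, together with small t. The labels thus name ApoErtTA, the activator transgene, and TRE2-TAg for both transgenic genotypes and neither for WT. All mice, WT included, drank water with doxycycline (25 µg/ml) and 2.5% sucrose for 4 days. Each genotype gave 1 array of each design, 6 arrays in all, and the labels do not say whether animals were pooled. With 1 array per genotype there was no replicate and no test, so a gene is called higher or lower only by size, at 2-fold or more (1 on the log2 scale). The transgene was not measured here, so the genotypes could not be checked against it.

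As background, electrons from NADH enter the respiratory chain at complex I and those from succinate at complex II. They pass through ubiquinone, complex III and cytochrome c to oxygen at complex IV, while protons are pumped across the inner mitochondrial membrane, and complex V uses the proton gradient to make ATP. Hepatocytes are rich in mitochondria and use this ATP for glucose, urea and protein synthesis. All the genes described are nuclear, and the subunits encoded by mitochondrial DNA were not analysed here.

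The deposited MAS5 signals had the same trimmed mean on every array, from 250.03 to 250.12, and between 47.0% and 52.0% of probe sets lay above the floor of their design. The floor is the median of all signals of a design, 90.4 on 430A and 140.5 on 430B. Signals below it were raised to it before a ratio was taken. Differences between the designs over 100 probe sets that both carry gave an SD for a log2 ratio of 1 design. It was 0.23 for LT to WT, 0.28 for 17kT to WT and 0.26 for LT to 17kT. The differences themselves vary more than this, and any shift common to all the probe sets is left out of it. The same probe sets showed a median offset between designs, 430A minus 430B, of -0.25, 0.19 and -0.36 in these ratios. Between probe sets of the same oxidative phosphorylation gene the SD of 1 probe set, from pairs of them, was 0.34, 0.32 and 0.32. The 3'/5' signal ratio of Gapdh, a measure of transcript completeness, was 5.81 and 6.04 on the WT arrays, and 2.85 to 3.53 on the transgenic arrays. That of Actb did not set WT apart, at 2.57 and 2.29 in WT, 2.52 and 2.50 in LT, and 2.13 and 1.72 in 17kT. The part of transcript completeness in the ratios was not tested. Fluidics station 2 was used for LT and station 1 for WT and 17kT, so the station cannot be told apart from the LT genotype. The 17kT signals were deposited with more decimals than those of the other arrays, so any difference in their export cannot be told apart from the 17kT genotype.

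Most of the genes were well measured in liver. Of the 91, 81 lay above the floor on all 3 arrays of their design, 6 on 1 or 2 arrays, and 4 on none. Those at the floor throughout were Cox7a1 and Cox8b, the isoforms of complex IV known from heart and skeletal muscle, Cox7b2, and Cox7c. Cox7c is a subunit of complex IV in all tissues, and both of its probe sets were at the floor here. Cox6a2, the striated muscle isoform of subunit 6a, had signals of 119 in WT, 101 in LT and 69.2 in 17kT on 430A, the last below the floor. Its _x_at probe set on 430B was above the floor throughout, at 373, 208 and 286. Cox4i2, the lung isoform of subunit 4, had signals of 98.5, 67.1 and 103 in WT, LT and 17kT. Skeletal muscle markers were near the floor as well: 12 of 16 were at it on all 3 arrays, and the summed signal of the 16 was 806 in WT, 529 in LT and 1006 in 17kT. Acta1, Myh4, Mylpf and Tnnc2, which mark muscle fibres, were at the floor on every array. Of 7 adipose markers 4 were at the floor on every array, among them Ucp1 and Adipoq, which mark brown fat and adipocytes. The summed signal of the 7 was 529 in WT, 317 in LT and 420 in 17kT.

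The tissue label was met by its markers. Of 10 hepatocyte markers 8 were analysed, all above the floor on every array, and their summed signal was 220620 in WT, 150321 in LT and 117980 in 17kT. Each of the 8 was below WT on both transgenic arrays. Their median log2 ratio was -0.47 in LT against WT and -0.71 in 17kT against WT. In bulk liver, fewer hepatocytes and less RNA per hepatocyte cannot be told apart. Bright genes outside the oxidative phosphorylation set were lower as well, as given below. Those with mean signals of 4000 and over had medians of -0.47 in LT and -0.60 in 17kT against WT. Whether the hepatocyte markers fell by more than other genes of like brightness was not tested. The part of the lower hepatocyte markers in the ratios of the oxidative phosphorylation genes was not tested.

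With signals scaled to a common trimmed mean, the 17kT liver had the lowest signal of the 3 for most of the genes. Among the 81 above the floor on all arrays, 17kT was lowest for 61 (75.3%), against 27.2% of all 9783 genes so measured. WT was highest for 43 (53.1%, against 33.4% of all genes) and LT for 34 (42.0%, against 34.3%). 17kT was highest for 4 (4.94%, against 32.4%). The order 17kT below LT below WT was seen in 37 genes (45.7%), against 16.5% of all genes. By complex, 17kT was lowest for 27 of 33 genes of complex I, 4 of 4 of complex II, 7 of 9 of complex III, 5 of 10 of complex IV and 14 of 17 of complex V. The SD of 0.32 to 0.34 between probe sets of a gene is about the size of the median difference. This ranking depends on the scaling. With scaling to the hybridisation controls, 17 of 87 measured genes were below 0 in 17kT against WT. In LT against 17kT 48 of 87 were below 0 with that scaling. The shares over all genes were not matched for brightness.

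**Figure D1:**
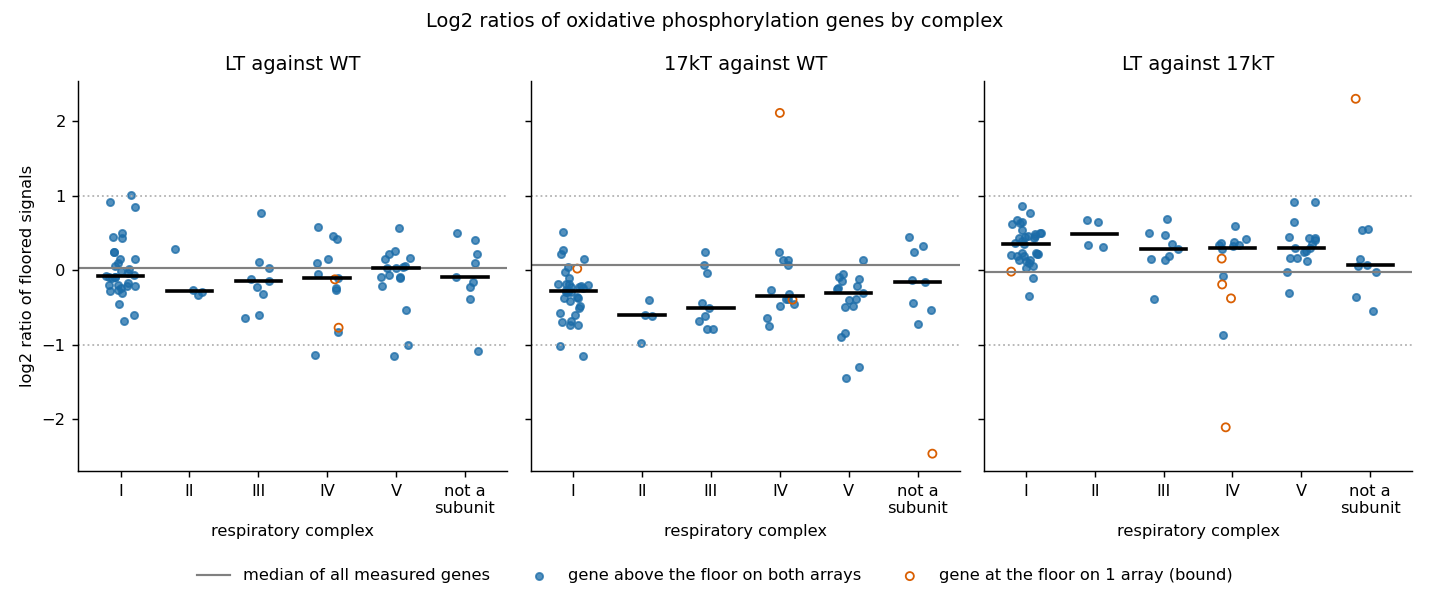
Log2 ratio of floored signals (vertical axis) of each oxidative phosphorylation gene, by complex (horizontal axis), in the 3 comparisons. Points are genes, open circles are genes at the floor on 1 array and so bounds, black bars are medians of a complex, the grey line is the median of all measured genes and dotted lines mark 2-fold. In 17kT against WT the medians of all 5 complexes lie below the line of all genes, from -0.61 for complex II to -0.28 for complex I.

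For sequence context, the promoter windows of the genes were searched for 4 motifs that are known from nuclear genes of mitochondrial proteins or from cell cycle genes. Windows of 300 bases, 250 before the start and 50 after it, came from RefSeq (GRCm38.p6) and were matched for 74 of the 91 genes. Motifs were searched on both strands: the palindromic NRF1 core, CCGGAAG for GABP, TTTGGCGC or TTTCCCGC for E2F, and CCAAT. The NRF1 core is shown in capitals in the stretches of Atp5g2 and Atp5k, and reads the same on either strand. The NRF1 letters were found in 6 of the 74 genes (8.11%), against 1.47% of 17492 protein-coding genes with such windows. Ndufaf4 and Ndufaf5, which are not subunits, were among the 6. By complex, 0 of 31 genes of complex I and 0 of 3 of complex II had these letters. The GABP letters were found in 19 of the 74 (25.7%), against 12.9%. In complex I the share was no higher than that, with 4 of 31 genes (12.9%). Over the 74 genes E2F letters were found in 2 (2.70%), against 2.31%, and CCAAT in 32 (43.2%), against 42.3%. The motifs were chosen with the ratios known, and a match is a description of letters and not a site of binding.

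Stretches just before the start of 6 of these genes are shown as examples of the NRF1, GABP and E2F letters lying wholly before the start. All lie on the minus strand of GRCm38.p6 and end at the last base before the start. The regions are chr5:115348959-115349133 for Cox6a1, chr15:102671048-102671127 for Atp5g2, chr5:108434400-108434479 for Atp5k, chr9:50603850-50603929 for Sdhd, chr10:80406822-80406901 for Uqcr11 and chr19:7217617-7217696 for Cox8a. Capitals mark the NRF1 letters in the first 3 genes, the GABP letters in Cox6a1, Sdhd and Uqcr11, and the E2F letters in Cox8a, whose GABP letters run over the start and are not marked. CCAAT is not marked.
Cox6a1: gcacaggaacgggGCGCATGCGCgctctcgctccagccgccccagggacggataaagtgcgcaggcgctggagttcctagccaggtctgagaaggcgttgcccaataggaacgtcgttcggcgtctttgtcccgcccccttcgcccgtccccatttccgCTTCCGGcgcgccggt
Atp5g2: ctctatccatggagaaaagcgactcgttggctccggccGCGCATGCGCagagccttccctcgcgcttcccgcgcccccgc
Atp5k: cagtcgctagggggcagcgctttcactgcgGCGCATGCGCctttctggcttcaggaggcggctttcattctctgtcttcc
Sdhd: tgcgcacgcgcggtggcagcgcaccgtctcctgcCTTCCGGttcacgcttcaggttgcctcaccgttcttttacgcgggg
Uqcr11: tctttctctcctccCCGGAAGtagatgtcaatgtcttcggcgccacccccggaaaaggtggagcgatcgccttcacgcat
Cox8a: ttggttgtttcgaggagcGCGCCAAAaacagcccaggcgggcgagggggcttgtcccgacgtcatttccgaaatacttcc
Atp5g2 and Atp5k both held the NRF1 letters, and Atp5k held the GABP letters too. Atp5g2 had log2 ratios of -0.07 in LT and -0.05 in 17kT against WT, while Atp5k had 0.15 and -0.50. This is a single pair, and the SD of 0.34 and 0.32 between probe sets of a gene limits it. Over genes with the GABP letters, the median log2 ratio of 17kT to WT was -0.40 (19 genes), and over those without them it was -0.23 (51 measured genes). For the NRF1 letters these medians were -0.24 and -0.28, and for CCAAT, found at the background rate, -0.38 and -0.24.

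The comparison of 17kT with WT asks how the truncated protein, with small t, alters the liver's transcripts. Most oxidative phosphorylation genes were lower in the 17kT liver by less than 2-fold: the median log2 ratio of 87 measured genes was -0.32, while that of all 12992 measured genes was 0.07. Of the 87, 70 (80.5%) were below 0, against 45.2% of all genes. Only Atp5g1, Atp5md, Ndufa10, Ndufa1 and Ndufaf6 were lower by 2-fold or more, 5 of 87 against 8.64% of all genes. Cox6b2 was the only 1 higher, against 9.97%. At 1.5-fold, 22 were lower and 1 was higher, against 17.6% and 22.7% of all genes. The share lower was thus 5.75% at 2-fold, below the background, and 25.3% at 1.5-fold, above it. The quartiles of the 87 ratios were -0.59 and -0.12.

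How the arrays are scaled sets the level of these ratios, while on 430A they lay below the other genes under each scaling tried. Under 6 scalings the median of the genes ran from -0.52 to 0.35, the last with scaling to the hybridisation controls, where the median of all genes was 0.47. Relative to the median of all genes read on the same design, 430A, it ran from -0.48 to -0.19. Complex II lay between -0.76 and -0.42 on that measure, complex III between -0.65 and -0.20, and complex I between -0.45 and -0.22. Complexes IV and V lay between -0.47 and -0.06 and between -0.45 and -0.07. The 19 probe sets measured on 430B had a median of -0.05, with 11 below 0, and the 143 measured on 430A a median of -0.32, with 116 below 0.

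The comparison of LT with WT asks the same of full-length large T. As a set the genes lay close to all genes here: the median log2 ratio of 85 measured genes was -0.09, with 50 below 0, and that of all 12775 measured genes was 0.02. Against other genes of like brightness on 430A they lay lower in the dimmer bins and higher in the brighter ones, as given below. Ndufa5 was higher by 2-fold or more, 1 of 85 against 11.1% of all genes. Atp5mpl, Cox8a, Ndufaf1 and Atp5md were lower, 4 of 85 against 9.01%. At 1.5-fold, 4 were higher and 10 lower, against 23.1% and 20.1%. Medians by complex ran from -0.28 for complex II to 0.02 for complex V. Relative to all genes on 430A the median ran from -0.18 to 0.06 under the 6 scalings, so its sign depends on the scaling. Quantile normalization gave the positive value. Both comparisons use the same WT array, so that an odd value on it moves both ratios, and they are given side by side with no overlap or correlation between them.

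The comparison of LT with 17kT does not use the WT array, and it sets 2 genotypes with small t and ApoErtTA side by side. It does share the 17kT array with the comparison of 17kT with WT. An odd value on that array moves both ratios, so they are not separate evidence of a low 17kT. The genes were higher in LT by a small amount: the median log2 ratio of 87 measured genes was 0.31, with 73 above 0, and that of all 12541 measured genes was -0.03. No subunit was higher by 2-fold. Ndufaf6 was the only 1 higher, against 4.47% of all genes, and Cox6b2 the only 1 lower, against 4.23%. At 1.5-fold, 14 were higher and 2 lower, against 13% and 13.8% of all genes. Medians by complex were 0.36, 0.49, 0.28, 0.30 and 0.30 for complexes I to V, and 0.06 for the genes that are not subunits. Relative to all genes on 430A the median stayed above 0 under the 6 scalings, from 0.19 to 0.35. On 430B the 19 measured probe sets had a median of -0.31, so the pattern rests on 430A.

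Brightness moved with these ratios. Among other genes on 430A, the median log2 ratio of 17kT to WT went from 0.17 for mean signals under 500 to -0.60 for signals of 4000 and over, and that of LT to WT from 0.08 to -0.47. In 17kT against WT the oxidative phosphorylation genes also fell over the first 4 bins, but not in the last. Their medians in bins of rising brightness were -0.15, -0.24, -0.41, -0.42 and -0.27. They lay below the other genes in the first 4 bins and above them in the last. For LT against WT the other genes had 0.08, 0.19, 0.01, -0.26 and -0.47. The oxidative phosphorylation genes had -0.12, 0.05, -0.18, -0.09 and 0.10 there, below the other genes in the dimmer bins and above them in the brighter ones. For LT against 17kT they were above the other genes in all 5 bins, with -0.02, 0.33, 0.20, 0.40 and 0.34 against -0.08, 0.01, 0.10, 0.09 and 0.23. Each bin held only 9 to 20 of the genes, and the bins were chosen after the ratios were seen.

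**Figure D2:**
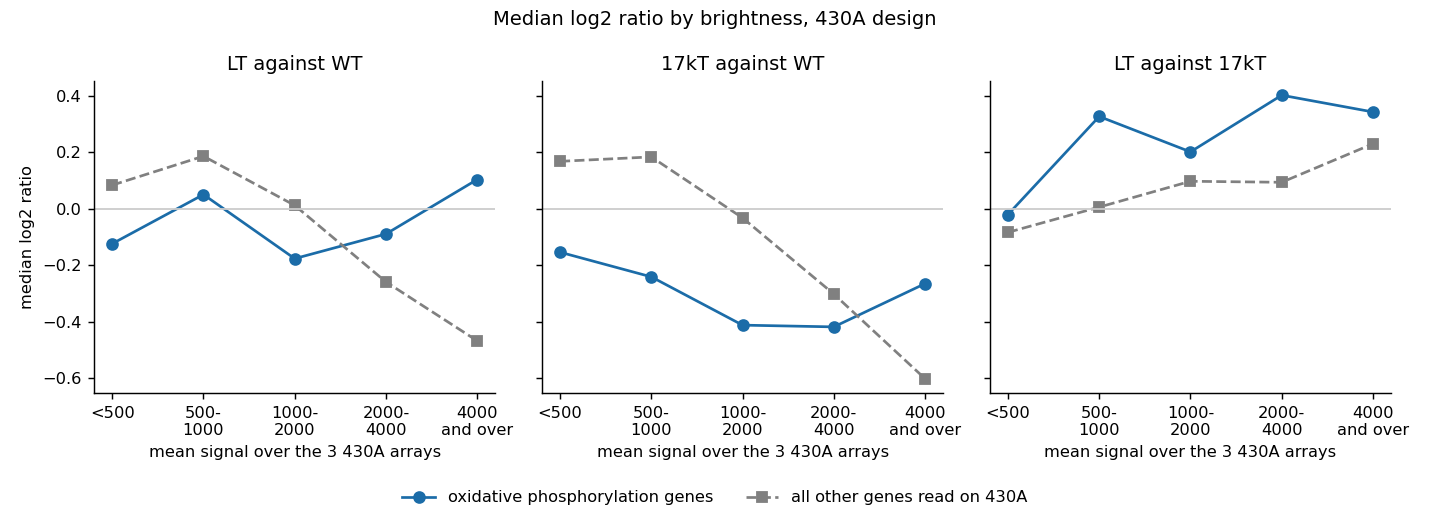
Median log2 ratio (vertical axis) by mean signal over the 3 arrays of 430A (horizontal axis, in 5 bins) for oxidative phosphorylation genes (blue) and all other genes (grey), in the 3 comparisons. In LT against 17kT the blue line is above the grey line in each bin; against WT the lines cross at high brightness.

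Complex I, which oxidises NADH, was mostly lower in 17kT, with Ndufa10 and Ndufa1 past 2-fold. Its median log2 ratio was -0.28 in 17kT against WT, with 28 of 34 measured genes below 0, and -0.08 in LT against WT. Ndufa10, an accessory subunit, was read at 1555 in WT, 1024 in LT and 703 in 17kT. WT was highest and 17kT lowest, 2.21-fold below WT. Ndufa1, an accessory subunit needed for assembly of the membrane arm, was 4452 in WT, 3768 in LT and 2206 in 17kT, so that 17kT lay 2.02-fold below WT and LT close to WT. Ndufv3, an accessory subunit next to the NADH-binding part, was lower on both transgenic arrays than on WT without reaching 2-fold, at 3155, 1972 and 1899.

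The core subunits of complex I carry the flavin and the iron-sulphur clusters. Ndufs8 was 1858 in WT, 1597 in LT and 1144 in 17kT, and Ndufs3 was 2760.3, 2387 and 1853. Ndufs7 was 1575, 1303 and 1113 in the same order. By these probe sets 17kT was lowest and WT highest, with log2 ratios of -0.70, -0.58 and -0.50 for 17kT against WT. Ndufs1 (1127, 1247 and 917), Ndufv1 (1817, 1799.9 and 1684) and Ndufv2 (2448, 2304 and 1992) had 17kT lowest too, with log2 ratios of -0.30, -0.11 and -0.30. None of the 6 passed 2-fold in any comparison by these probe sets. The probe sets of Ndufs8 disagreed on LT: 2 of the 6 put LT lowest, such as 522, 265 and 368, and 2 put it highest, such as 462, 481 and 323. An _x_at probe set of Ndufv1 put 17kT highest, at 1316, 1154 and 1357.

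LT was highest for 13 of the 33 complex I genes above the floor on all arrays, and WT for 19. Ndufa5, an accessory subunit of the matrix arm, was 573 in WT, 1154 in LT and 818 in 17kT by its representative probe set, 2.01-fold higher in LT than in WT. Its second probe set gave 546, 633 and 439.7, a log2 ratio of 0.21, so the size of the difference was not shared by the probe sets. Ndufa12, another accessory subunit, was 568, 1068 and 684, and its pair of _x_at probe sets gave log2 ratios of 0.10 and 0.04 for LT against WT. Ndufc2, a membrane arm subunit read on 430B, was 5222 in WT, 9374 in LT and 5147 in 17kT. On 430A its 2 probe sets gave log2 ratios of 0.66 and 0.05 for LT against WT. Ndufb4, also of the membrane arm and read on 430B, was 256, 224 and 284, the lowest log2 ratio of LT to 17kT in complex I at -0.34.

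Complex II, succinate dehydrogenase, is shared by the respiratory chain and the tricarboxylic acid cycle, and all 4 of its genes were lowest in 17kT by their representative probe sets. Its median was -0.61 in 17kT against WT, -0.28 in LT against WT and 0.49 in LT against 17kT. Sdha, the flavin-binding catalytic subunit, was 3477 in WT, 2766 in LT and 1767 in 17kT, a log2 ratio of -0.98 for 17kT against WT. Its second probe set on 430A gave 2592, 1355 and 1037, a log2 ratio of -1.32. Both probe sets put WT highest and 17kT lowest. A probe set for Sdha on 430B, near the floor, gave 0.12.

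Sdhb, the iron-sulphur subunit, was 4075 in WT, 3385 in LT and 2683 in 17kT. Sdhc, a membrane anchor, was 921, 749 and 604. Both had the same order as Sdha, with log2 ratios of -0.60 and -0.61 for 17kT against WT. Sdhd, the other membrane anchor, was 3094 in WT, 3757 in LT and 2348 in 17kT, so that LT rather than WT was highest. Its dim _x_at probe set gave 184, 137 and 149, with WT highest and LT lowest. None of the 4 passed 2-fold by its representative probe set.

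**Figure D3:**
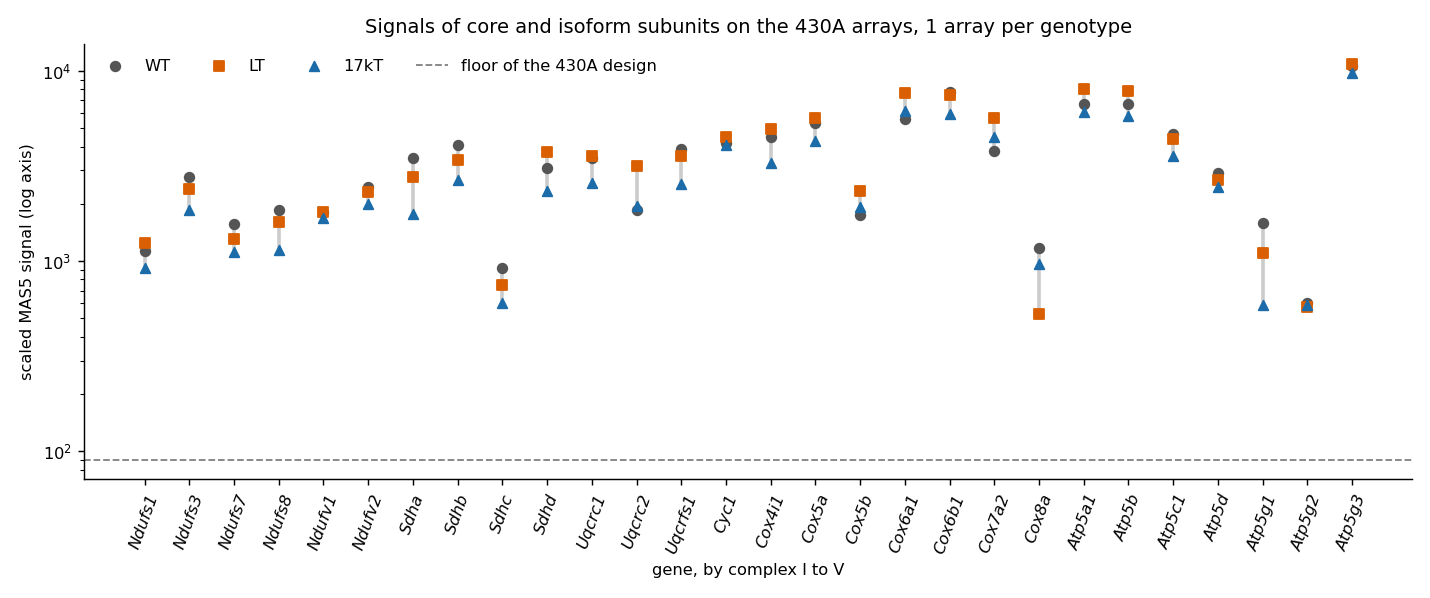
Scaled MAS5 signal (log axis) of core and isoform subunits on the 430A arrays, 1 array per genotype, with the genes ordered by complex and the floor dashed. Signals are to be compared within a gene only. The 17kT triangle is the lowest mark for all 4 complex II genes, and the LT square is lowest for Cox8a at 527.

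Complex III, which passes electrons from ubiquinol to cytochrome c, had a median of -0.50 in 17kT against WT and -0.15 in LT against WT, and no gene passed 2-fold. Uqcrq, a small subunit, was 1971 in WT, 1300.2 in LT and 1136 in 17kT. Uqcr11, another small subunit whose promoter stretch is shown above, was 1723, 1102 and 999.9. For both, WT stood above the 2 transgenic arrays, which lay close together. Uqcrb, the ubiquinone-binding protein, was 12878, 10285 and 8056, and Uqcrfs1, the Rieske iron-sulphur protein, was 3884, 3575 and 2537. In these the LT array lay between the others.

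The core proteins of complex III differed from each other. Uqcrc1 was 3482 in WT, 3549.8 in LT and 2568 in 17kT, with 17kT alone low. Uqcrc2 was 1851, 3141 and 1946, with LT alone high, a log2 ratio of 0.76 against WT. Its second probe set gave 0.23. Cyc1, the haem-carrying subunit that hands electrons to cytochrome c, was 4183, 4514 and 4056, log2 ratios of 0.11 and -0.04, within the SD between probe sets. Uqcrh, the hinge protein, was highest in 17kT on 430B, at 4207, 3799.5 and 4965, while its probe set on 430A gave 958, 966 and 841. Its designs thus gave opposite signs for 17kT against WT, 0.24 and -0.19.

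Complex IV, cytochrome c oxidase, was the most mixed. Its median was -0.35 in 17kT against WT and -0.11 in LT against WT, and 9 of its 14 measured genes were below 0 in 17kT against WT. Cox8a, the isoform of subunit 8 found in liver, was 1164 in WT, 527 in LT and 966 in 17kT. LT stood alone as low, 2.21-fold below WT. Its _x_at probe set gave 2373, 1568 and 1469.7, with both transgenic arrays low and a log2 ratio of -0.60 for LT. Cox6b2, the testis isoform of subunit 6b, was 45.0 in WT, 18.8 in LT and 389 in 17kT. Only 17kT was above the floor, at least 4.31-fold higher than the other arrays, and the gene had 1 probe set. The liver isoform Cox6b1 was 7715, 7468 and 5924 over the same arrays.

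The remaining subunits of complex IV stayed within 2-fold by their representative probe sets. Cox4i1, the main isoform of subunit 4, was 4483 in WT, 4974 in LT and 3287 in 17kT, and Cox5a, which binds thyroid hormone metabolites, was 5305, 5676 and 4259. In both, 17kT was lowest and LT highest. Cox5b (1746, 2333 and 1916), Cox6a1 (5584, 7673 and 6141) and Cox7a2 (3801, 5681 and 4507) had WT lowest and LT highest. The log2 ratios of these 3 to WT were 0.42, 0.46 and 0.58 in LT and 0.13, 0.14 and 0.25 in 17kT. Other probe sets of Cox5b and Cox6a1 included negative values for 17kT against WT, such as -0.21 and -0.41. Cox6c, a small subunit, was 5544, 4589 and 3566, and its second probe set gave 1670.2, 785 and 1039, with WT highest in both and different arrays lowest. The second probe set was past 2-fold in LT against WT, with a log2 ratio of -1.09.

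Ndufa4, once counted in complex I and now in complex IV, was 2625 in WT, 2440.3 in LT and 1874 in 17kT. Ndufa4l2, a related protein known to be induced in low oxygen, was 239.9, 96.2 and 183 on 430B, with LT under the floor. Cox8c, another isoform of subunit 8, was 528, 296 and 314, while its _x_at probe set on 430B gave 404, 556 and 390.2. The 2 probe sets put LT at opposite ends. Cox7b was not analysed here.

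Complex V, ATP synthase, had the lowest single ratios to WT among the subunits. Its median was -0.30 in 17kT against WT, with 16 of 17 genes below 0, and 0.02 in LT against WT. The 3 genes of the c subunit, which forms the proton-driven ring, encode the same mature protein and differed in their ratios. Atp5g1 was 1594 in WT, 1098 in LT and 584 in 17kT, 2.73-fold lower in 17kT than in WT, with LT between. Atp5g2 was 605, 577 and 584, and Atp5g3 was 10629, 10889 and 9745, both with the arrays close together. Their log2 ratios of 17kT to WT were -0.05 and -0.13. A further Atp5g1 probe set on 430B was near the floor, at 147 in WT, and gave a bound of -0.07.

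Atp5md and Atp5mpl, small proteins of the membrane part, were below WT on both transgenic arrays. Atp5md, known also as DAPIT, was 1053 in WT, 525 in LT and 429 in 17kT, 2.01-fold and 2.45-fold below WT. Atp5mpl, a proteolipid of the same part, was 1546, 694 and 862, 2.23-fold below WT in LT and with a log2 ratio of -0.84 in 17kT. Each had 1 probe set, and in each WT stood apart from the other arrays. Not all small membrane subunits were below WT in LT. Atp5l, subunit g, was 173, 176 and 93.1, with 17kT just above the floor and alone low. Atp5k was 914, 1015 and 646, and Atp5j2 was 2498, 2785 and 2351, both highest in LT.

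The catalytic head and shaft of ATP synthase stayed within 2-fold in all 3 comparisons. Atp5a1 was 6699 in WT, 7988 in LT and 6039 in 17kT, and Atp5b was 6709, 7801 and 5786. In both LT was highest and 17kT lowest, with log2 ratios to WT of 0.25 and 0.22 in LT and -0.15 and -0.21 in 17kT. Atp5c1, the central shaft, was 4676, 4373 and 3550.2, and Atp5d, also of the shaft, 2886, 2678 and 2455. Atp5o, the stalk subunit that holds the head still, was highest in LT, at 2111, 3117 and 2323.

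Of the genes that are not subunits, Ndufaf6 had the largest difference. It was 773 in WT, 690.2 in LT and 58.8 in 17kT on 430B, where 17kT alone was below the floor, so that it was at least 5.50-fold lower than WT. It was read from 1 probe set. Ndufaf1, which helps to build the membrane arm of complex I, was 487, 230.0 and 295, 2.12-fold below WT in LT. Cox7a2l was 889, 762 and 1113, and its other 2 probe sets gave log2 ratios of -0.37 and -0.31 for 17kT against WT where this one gave 0.32.

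**Figure D4:**
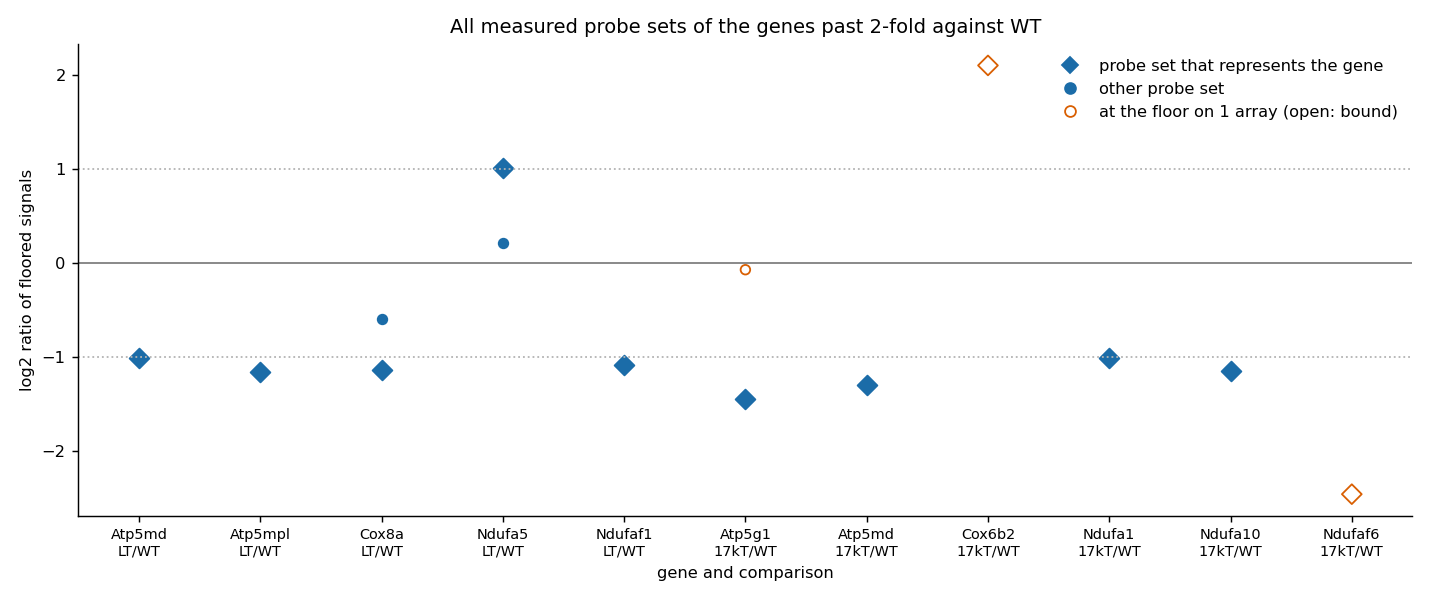
Log2 ratio of floored signals (vertical axis) of every measured probe set of the genes past 2-fold against WT (horizontal axis, gene and comparison). Diamonds are the representative probe sets, circles the others and open marks bounds at the floor. Other measured probe sets exist for Cox8a, Ndufa5 and Atp5g1 only, and none of them passes 2-fold.

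The agreement of probe sets limits single genes. Of 46 genes with several measured probe sets in 17kT against WT, 28 had the same sign in all, against 29 of 45 in LT against WT and 32 of 45 in LT against 17kT.

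Genes around the respiratory chain were read from 5 lists. Assembly factors, which build the complexes, lay close to the subunits: the median log2 ratio of 39 measured genes was -0.31 in 17kT against WT, -0.10 in LT against WT and 0.25 in LT against 17kT. None was higher than WT by 2-fold, against 11.1% of all genes in LT and 9.97% in 17kT. In LT 2 were lower, against 9.01% of all genes, and in 17kT 3 were, against 8.64%. The same shares over all genes apply to the other lists. Sco2, a copper chaperone for complex IV, was 998 in WT, 172 in LT and 127 in 17kT, low on both transgenic arrays with log2 ratios of -2.54 and -2.98. Uqcc3, an assembly factor of complex III, was -1.18 in LT against WT, and Coa5, of complex IV, was -1.18 in 17kT against WT. Sdhaf3, of complex II, was 667 in WT, 782 in LT and 333 in 17kT.

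Tricarboxylic acid cycle genes, with pyruvate dehydrogenase and pyruvate carboxylase, had medians of -0.06 in LT and -0.30 in 17kT against WT, over 18 measured genes. They were divided. Idh2, the mitochondrial NADP-linked isocitrate dehydrogenase, was 954 in WT, 2008 in LT and 2597 in 17kT, and Mdh2, malate dehydrogenase, was 3331, 6878 and 5207. Both had WT lowest, with log2 ratios of 1.07 and 1.05 in LT. Pcx, pyruvate carboxylase, was 3302 in WT, 669 in LT and 1564 in 17kT, and Pdha1, of pyruvate dehydrogenase, was 2193, 1434 and 1026. In these WT was highest.

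Regulators of mitochondrial transcription did not lie below WT as a list. Their median over 20 measured genes was 0.31 in LT and 0.22 in 17kT against WT. Ppargc1a, a coactivator of mitochondrial biogenesis, was 97.9 in WT, 160.0 in LT and 115 in 17kT, all near the floor. Nrf1 was 193, 242 and 301, and Gabpa was 170.0, 214 and 236, both highest in 17kT without reaching 2-fold. Pprc1, a related coactivator, was below the floor in WT and 206 in 17kT, at least 1.19 higher on the log2 scale. Tfam, which packages mitochondrial DNA and starts its transcription, was 853, 688 and 911.

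The next list held cytochrome c, the electron transfer flavoprotein and, for the most part, genes of ubiquinone synthesis. Its medians were 0.06 in LT and -0.13 in 17kT against WT, over 19 and 18 measured genes. Cycs, cytochrome c, was 2473 in WT, 3060.4 in LT and 2756, within 2-fold. Coq8a, a kinase-like protein of ubiquinone synthesis, was 3349, 604 and 459, with log2 ratios of -2.47 and -2.87. Coq6 and Coq3, enzymes of the same pathway, were higher in 17kT, at 1.07 and 1.16, and Coq6 was at 2-fold in LT, with 92.5 in WT and 185 in LT. Coq8b, another kinase-like protein of the pathway, was 204, 129.7 and 294, with a log2 ratio of -1.18 for LT against 17kT. Among 7 measured carriers and inhibitors the medians were 0.24 and 0.34. Atpif1, the inhibitor of ATP synthase, was 216 in WT, 773 in LT and 766 in 17kT, higher on both transgenic arrays by 1.84 and 1.83 on the log2 scale. Slc25a1, the citrate carrier, was 7527, 2643 and 2325, and Slc25a13, an aspartate-glutamate carrier, had a log2 ratio of -1.02 in LT.

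**Figure D5:**
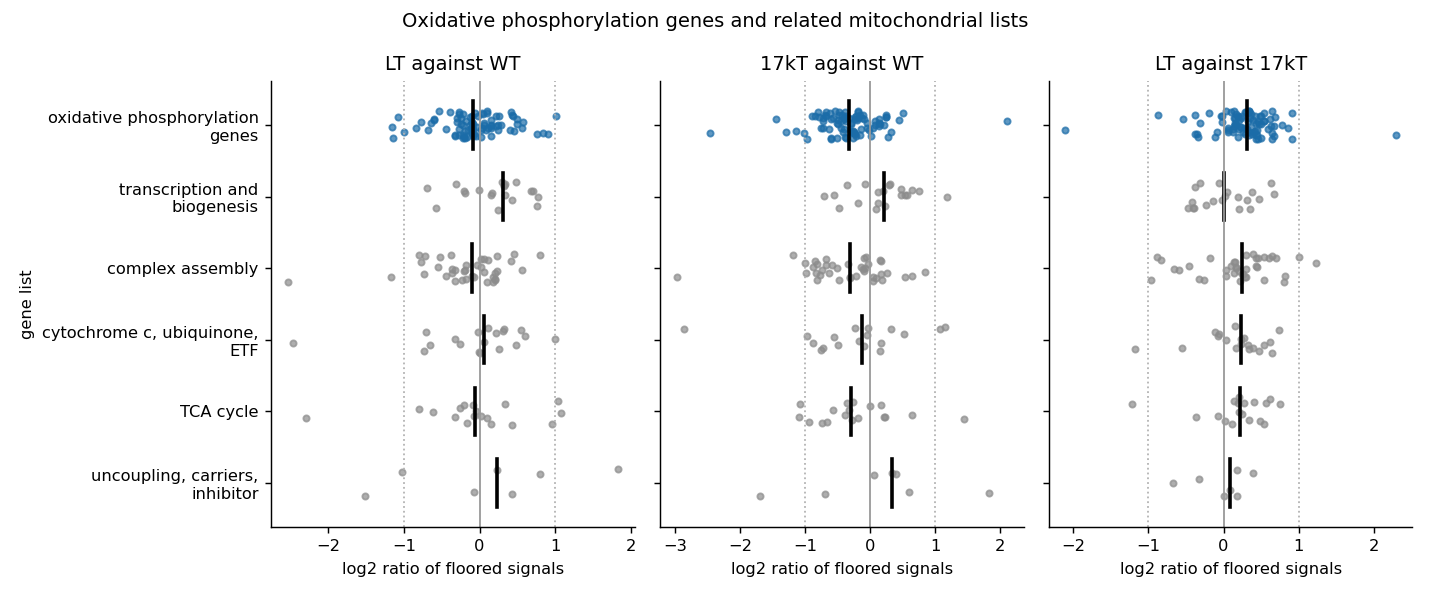
Log2 ratio of floored signals (horizontal axis) of each gene of the oxidative phosphorylation set (blue) and of 5 related lists (grey), in the 3 comparisons; black bars are medians and dotted lines mark 2-fold. In 17kT against WT the bars of the oxidative phosphorylation genes, assembly factors and tricarboxylic acid cycle lie at -0.32, -0.31 and -0.30, and that of the transcription list at 0.22. The lists were not matched for brightness.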

How the data were processed

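Liver RNA of 3 genotypes was measured on 6 arrays. The authors deposited signal intensities from MAS5 (version not given in the sources used here), per the submitters' processing notes, and their range shows a linear scale. A settings file deposited with each array was used only for the fluidics station. Symbols were taken from the annotation of the platform, and all 91 were found in the RefSeq table of GRCm38.p6. No coordinates of probe sets are given, since the array files name no build.

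Within a design, signals were scaled to a common 2% trimmed mean, those under the median signal were raised to it (the floor), and log2 ratios were taken. A gene was read from the probe set brightest relative to the floor. The _x_at probe sets, open to cross-hybridisation, were used for a gene only in the absence of any other. Genes with both arrays at the floor have no ratio, and those with 1 array at it have a bound. No test was possible on single arrays, whose number limits the precision. A gene was called at 2-fold.

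Genes named were those past 2-fold, the highest and lowest of each complex, isoform pairs, core subunits, and members of the 5 related lists past 2-fold with Ppargc1a, Nrf1, Gabpa, Tfam and Cycs. Ndufa12, Uqcrb, Cox6c, Cox7c, Atp5k, Atp5j2, the motifs and the printed stretches were chosen outside this rule, with the values known. The members and lists were chosen with earlier results of these data known. The other cell type lists had these medians in LT and 17kT against WT: Kupffer cell -0.19 and 0.18, endothelial -0.61 and -0.39, stellate -0.38 and -0.27, lymphocyte -0.48 and -0.25, neutrophil 0.92 and 0.32. For adipose they were -0.47 and -0.11, erythroid -0.21 and -1.31, and bile duct and progenitor 2.60 and 0.81, but 4 of 7, 3 of 6 and 4 of 6 of these genes were at the floor on all arrays. The erythroid summed signal was 3238 in WT, 1351 in LT and 815 in 17kT, and that of the bile duct list 294, 1264 and 311. Their part in the ratios was not tested.

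Alternatives were 5 other scalings, other floors, a pseudocount, 1.5-fold and 3-fold rules, other choices of probe set, each design alone and subunits only. The code was tested on simulated data. Python 3.11.15, numpy 2.4.6, pandas 2.3.3 and matplotlib 3.10.9 were used.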

Additional observations from a re-analysis of the deposited data

How the results depend on the processing

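The medians of the genes kept their sign under the alternatives, and moved by less than the SD between designs, apart from the following. In LT against WT (-0.09) the median was 0.04 with quantile normalization, -0.34 with scaling to the probe sets shared by the designs and 0.30 with scaling to the hybridisation controls, an alternative chosen after seeing the data. In 17kT against WT (-0.32) it was 0.35 with the hybridisation controls, and in LT against 17kT (0.31) it was -0.016 with those controls and -0.022 on 430B alone, over 16 genes. The cause was not tested, though 430B alone leaves fewer genes. Counts past 2-fold are small and moved often. In LT against WT the 1 higher gene became 2 with median scaling or a floor at the 25th percentile, 4 with the hybridisation controls and 0 with the shared probe sets, quantile normalization, a pseudocount, a 3-fold rule or the mean of probe sets, and was 4 at 1.5-fold. The 4 lower became 0 with the controls or at 3-fold, 2 with a pseudocount, 10 at 1.5-fold and 1 on 430B alone. In 17kT against WT the 1 higher became 4 with the controls, 2 with the 25th and 0 with the 75th percentile floor, and 0 on 430B alone. The 5 lower became 9 with the shared probe sets, 1 with the controls, at 3-fold or on 430B alone, and 22 at 1.5-fold. In LT against 17kT the 1 higher became 4 with median scaling, 2 with the controls, 14 at 1.5-fold and 0 on 430A alone or with subunits only. The 1 lower became 2 with the controls or at 1.5-fold and 0 with the 75th percentile floor. No gene named changed sign past 2-fold. Whether a gene stayed called was judged by the fold rule of each alternative, 1.5-fold or 3-fold in those and 2-fold elsewhere. In 17kT against WT, Ndufaf6 stayed called in 13 of 13 alternatives, Cox6b2 in 13 of 14 and Atp5g1 in 12 of 15. Ndufa10 and Atp5md did in 12 of 14 and Ndufa1 in 10 of 14. In LT against WT, Atp5mpl did in 12 of 14 and Atp5md and Cox8a in 11 of 14. Ndufa5 did in 9 of 14 and Ndufaf1 in 9 of 13. Some alternatives, such as the mean of probe sets, could not change a gene with 1 probe set. Part of its count was thus fixed in advance and does not measure stability. No paired analysis was possible because each genotype has 1 array per design and no test was made. Signals near the floor limit Cox6b2, Atp5l, Cox6a2, Ppargc1a and Coq6.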

Other observations

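Probe sets that carry several symbols were outside the gene set and give a few further subunits. The probe set of Ndufs6 and Ndufs6b, a complex I subunit and its copy, was 2628 in WT, 1855 in LT and 1734 in 17kT, highest in WT, with log2 ratios of -0.50 and -0.60. The 430A probe set of Ndufa11 and Ndufa11b was 821, 1304 and 1115, lowest in WT, with log2 ratios of 0.67 and 0.44, whereas on 430B their probe set gave -0.52 and -0.31. The brighter probe set shared by Ndufb4 and its copies was 1274, 1263 and 991, lowest in 17kT, and that of Ndufs5 and its pseudogene was 692, 739.8 and 650.1. None of these passed 2-fold.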
